A study of Homo sapiens with 8 samples.

Results

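The transcripts described here are 10 of the 54628 genes counted in the series. They are the stress transcription factor ATF4, its partner DDIT3 and its feedback inhibitor TRIB3, the amino acid and phosphoenolpyruvate enzymes ASNS and PCK2, the serine synthesis enzymes PHGDH, PSAT1 and PSPH, and the mitochondrial folate enzymes SHMT2 and MTHFD2. They were chosen by name and by their level in the 4 groups in CPM, the counts of a gene relative to the scaled total of its library, so their levels and changes are a description. Where they are said to pass the threshold, that places them in the fit over all genes and is no test of them. All 10 passed the filter on low counts, which kept 17155 genes for testing.

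Messenger RNA was sequenced from IMR90 cells, a human lung fibroblast line, in 8 libraries, 2 for each of 4 groups. All groups, the controls included, shared the genotype: telomerase (hTERT) and a pInducer20 vector with a doxycycline-inducible, Flag-tagged YAP5SA, a constitutively active form of the transcriptional coactivator YAP. Senescent cells with doxycycline were taken 9 days after exposure to bleomycin, a drug that breaks DNA, at 10 ug/ml for 24 hours, and had received doxycycline at 1 ug/ml for 11 days. Senescent cells without doxycycline received the same bleomycin treatment alone. Proliferating cells with doxycycline received the drug at the same dose and for the same time, without bleomycin, and untreated proliferating cells received neither. If doxycycline ran until sampling, it began before bleomycin. Doxycycline in senescent cells then means bleomycin-treated cells with and without it, not its addition to cells already senescent. Per the labels, all were grown in DMEM with fetal bovine serum and nonessential amino acids, a supplement that contains serine, glycine and asparagine. The series used here holds 1 cell line and no cells that received doxycycline without the transgene, so drug and transgene cannot be told apart. The labels do not say whether the replicates of a group came from separate cultures, so a p-value speaks only of the spread among the libraries at hand, which may be technical.

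ATF4 is the effector of the integrated stress response. Kinases that sense unfolded protein, amino acid lack, viral RNA or haem shortage phosphorylate the initiation factor eIF2. Most translation then slows while the ATF4 message is translated better, so the level of its mRNA does not give the level of the protein. ATF4 pairs with C/EBP factors at the C/EBP-ATF response element (CARE) and is known to raise genes of amino acid uptake, synthesis and tRNA charging. The serine route begins with PHGDH, which oxidises the glycolytic intermediate 3-phosphoglycerate, continues with the aminotransferase PSAT1 and ends with the phosphatase PSPH. In mitochondria SHMT2 splits serine into glycine and a folate-bound carbon unit, and MTHFD2 oxidises that unit on the way to formate for purine synthesis.

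Promoter windows from RefSeq (GRCh38.p14), which reach from 250 bases before to 50 bases after a gene's start, were matched to 8 of the 10 genes. PSPH and SHMT2 were not matched. The letters TGATGNAA, the core of the CARE, were searched on both strands. They stood in 3.62% of all 35116 windows and in the windows of 4.46% of 27305 genes. Among the 8 genes matched, only ASNS had a window that held them. Bases outside these windows were not searched, so a gene without a match here may still carry the element elsewhere. The ASNS window with the match is shown whole because ASNS is the gene in which this element is best known. It covers chr7:97872359-97872658 and is written 5′ to 3′ on the minus strand, the strand of the gene, with the match in capitals at 68 bases before the start.
ASNS: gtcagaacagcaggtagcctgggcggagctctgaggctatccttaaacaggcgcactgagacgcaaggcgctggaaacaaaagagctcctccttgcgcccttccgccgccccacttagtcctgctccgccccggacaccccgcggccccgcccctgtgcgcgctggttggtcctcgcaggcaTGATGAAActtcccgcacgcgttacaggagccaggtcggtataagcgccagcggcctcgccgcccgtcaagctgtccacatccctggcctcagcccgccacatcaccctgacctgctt

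Of the other listed ATF4 target genes, 12 of the 28 matched held the same letters in a window, as did 1 of 22 matched folate and glycine genes. These lists were chosen from knowledge of ATF4, so the larger share among ATF4 targets is a description of the lists. A match shows where these letters lie and not that a factor was bound there. The matches of SLC3A2, FGF21, GARS1, NARS1, MARS1 and CARS1 are not printed. The others are shown with 10 bases on either side, for genes whose change with doxycycline is described further on. They are written 5′ to 3′ on the strand that carries TGATGNAA, with the match in capitals.
ASNS, chr7:97872459-97872486, minus strand: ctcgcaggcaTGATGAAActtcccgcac
CHAC1, chr15:40953252-40953279, minus strand: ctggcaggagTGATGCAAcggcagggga
SLC7A1, chr13:29595664-29595691, minus strand: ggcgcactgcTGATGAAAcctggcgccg
SLC1A4, chr2:64989382-64989409, minus strand: cggctggagaTGATGCAAacgggagccg
SLC1A5, chr19:46784894-46784921, minus strand: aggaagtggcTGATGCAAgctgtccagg
AARS1, chr16:70289676-70289703, plus strand: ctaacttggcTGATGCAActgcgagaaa
IARS1, chr9:92293693-92293720, plus strand: cgcacggaggTGATGCAAcgcgctgaaa
MTHFD1L, chr6:150866347-150866374, plus strand: ccgccggctcTGATGCAAtcgcgccggg

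The libraries held 33627708 to 39692162 counts in total. All 10 fibroblast markers were detected in every group, with a summed level of 20577 to 36757 CPM. The 7 epithelial markers summed to at most 2.21 CPM, and of the endothelial and leukocyte markers only TEK, CD68 and, in senescent cells, VWF reached 1 CPM. The YAP1 gene, whose counts can hold reads of both the endogenous message and the transgene, stood at 287 and 291 CPM in senescent cells with doxycycline, 190.3 and 223 CPM in senescent cells, 190.2 to 238 CPM in proliferating cells with doxycycline and 195 to 198 CPM in untreated proliferating cells. Mitochondrially encoded genes took 3.31 to 3.82% of counts in senescent cells with doxycycline and 5.59 to 7.05% in the other groups. The 10 proliferation markers summed to 89.7 and 90.0 CPM in senescent cells with doxycycline, 137 and 179 CPM in senescent cells, 1253 and 1278 CPM in proliferating cells with doxycycline and 1706 and 1742 CPM in untreated proliferating cells. These sums moved with both treatments, and their part in the results below was not tested. In bulk RNA, fewer cells with a transcript and less of it per cell cannot be told apart.

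The fitted doxycycline changes of the 10 genes had opposite signs in the 2 states. In senescent cells all 10 were higher with doxycycline, with log2 changes of 0.31 to 1.54. In proliferating cells all 10 fitted changes were negative, from -0.87 to -0.12. Of these, 6 passed the threshold of the test, an adjusted p of 0.05, and 4 (DDIT3, TRIB3, ASNS and SHMT2) did not. Refitted with other settings or 1 library left out, the sign in proliferating cells was kept in 12 of 14 fits for ASNS. For DDIT3 it was kept in 14 of 15, and for the other genes in all. After bleomycin alone the group was mostly lower, and after bleomycin with doxycycline it was mostly higher.

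Read against the whole table, doxycycline in senescent cells called 46.3% of the genes tested, 22.6% higher and 23.8% lower, and all 10 of these genes higher. Doxycycline in proliferating cells called 23.0% of genes, 12.6% higher and 10.4% lower, against 6 of the 10 lower and 0 higher. The difference of the doxycycline effects between the states called 19.9% of genes, 8.08% higher and 11.8% lower, against 9 of the 10 higher. Bleomycin with doxycycline called 55.5% of genes, 26.8% higher and 28.7% lower, against 7 of the 10 higher and 3 lower. Bleomycin without doxycycline called 59.2% of genes, 29.8% higher and 29.4% lower, against 1 of the 10 higher and 7 lower. Since these values chose the genes, nothing is read from the counts. The comparisons share groups, so their counts are not independent of each other.

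**Figure D1:**
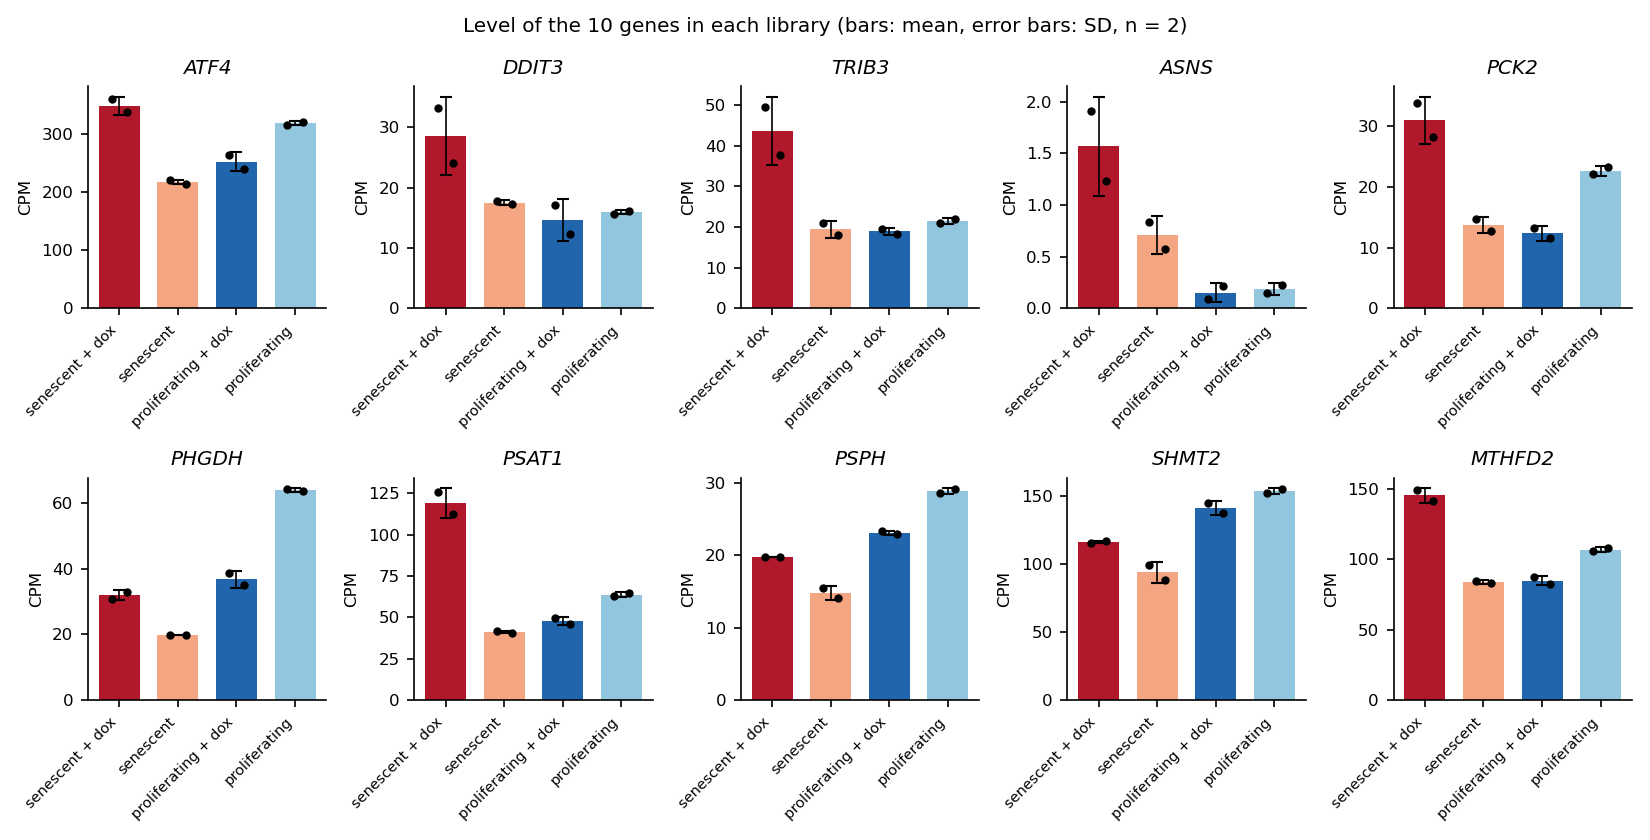
Levels in CPM of the 10 genes in each library (points) with the group mean (bar) and SD (error bar), 1 panel a gene, each with its own axis from 0. The points of senescent cells with doxycycline lie highest in 7 panels, and those of untreated proliferating cells in the panels of PHGDH, PSPH and SHMT2.

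Among the stress regulators, ATF4 (chr22:39520559-39522686) was abundant in every library and varied little. It stood at 359.7 and 337 CPM in senescent cells with doxycycline, 220.4 and 215 CPM in senescent cells, 264 and 241 CPM in proliferating cells with doxycycline and 316 and 321 CPM in untreated proliferating cells. No 2 groups overlapped, but the highest group, senescent cells with doxycycline, was only 1.09 times the untreated proliferating cells. Doxycycline went with a log2 change of 0.68 (SE 0.08) in senescent cells. In proliferating cells the change was -0.34 (SE 0.08).

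DDIT3 (chr12:57516588-57520517) encodes CHOP, a factor that pairs with ATF4 and is known for its role in stress-induced cell death. It stood at 33.2 and 24.0 CPM in senescent cells with doxycycline, 17.8 and 17.2 CPM in senescent cells, 17.1 and 12.2 CPM in proliferating cells with doxycycline and 15.7 and 16.1 CPM in untreated proliferating cells. Senescent cells with doxycycline were highest and the senescent cells next, and the 2 proliferating groups overlapped. The log2 change with doxycycline was 0.71 (SE 0.17) in senescent cells and -0.12 (SE 0.17) in proliferating cells, where the libraries overlapped and the test was not passed. MARS1 shares 65 bases with the end of DDIT3, and a coding gene annotated inside it, LOC128125814, was not counted, so reads of these loci could be shared.

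TRIB3 (chr20:380760-397559), a pseudokinase that ATF4 and CHOP induce and that restrains them, had a similar profile. Its levels were 49.7 and 37.8 CPM in senescent cells with doxycycline, 20.9 and 18.0 CPM in senescent cells, 19.5 and 18.4 CPM in proliferating cells with doxycycline and 20.9 and 22.0 CPM in untreated proliferating cells. Senescent cells did not differ beyond their spread from either proliferating group, and among proliferating cells the libraries with doxycycline lay below those without. The log2 change with doxycycline was 1.17 (SE 0.12) in senescent cells and -0.18 (SE 0.12), not past the threshold, in proliferating cells. Per count of ATF4 in the same library, TRIB3 had 0.138 and 0.112 counts in senescent cells with doxycycline, 0.0948 and 0.0840 in senescent cells, 0.0740 and 0.0764 in proliferating cells with doxycycline and 0.0662 and 0.0685 in untreated proliferating cells. Such a ratio within a library does not depend on how libraries were scaled, and that of TRIB3 was highest in senescent cells with doxycycline. That of DDIT3 to ATF4 was 0.0922 and 0.0712 in senescent cells with doxycycline, which overlapped with 0.0807 and 0.0802 in senescent cells.

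ASNS (chr7:97851677-97928441) makes asparagine from aspartate and glutamine and is a standard readout of ATF4. It was counted at very low numbers, 75 and 44 counts (1.91 and 1.23 CPM) in senescent cells with doxycycline, 30 and 19 counts (0.840 and 0.578 CPM) in senescent cells, 3 and 9 counts (0.0883 and 0.218 CPM) in proliferating cells with doxycycline and 6 and 9 counts (0.146 and 0.225 CPM) in untreated proliferating cells. Both senescent groups were above both proliferating groups, which overlapped each other. In proliferating cells the log2 change with doxycycline was -0.23 (SE 0.60), not past the threshold. Its sign was unsure, with -1.04 to 0.24 over 14 refits. The ratio of senescent cells with doxycycline to untreated proliferating cells, 8.44, was the largest among the 10 genes. A readthrough transcript annotated as CZ1P-ASNS shares 76325 bases with ASNS and had 2 to 9 counts a library. How reads in overlapping genes were assigned is not given in the sources used here, which leaves the level of ASNS uncertain. Its log2 change with doxycycline in senescent cells was 1.14 (SE 0.38), and the call was lost without 1 library of senescent cells (replicate 2, log2 change 0.90) or 1 of senescent cells with doxycycline (replicate 1, 0.80).

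PCK2 (chr14:24094171-24104125), the mitochondrial enzyme that makes phosphoenolpyruvate from oxaloacetate, gave higher counts. It stood at 33.8 and 28.3 CPM in senescent cells with doxycycline, 14.7 and 12.8 CPM in senescent cells, 13.3 and 11.5 CPM in proliferating cells with doxycycline and 22.1 and 23.3 CPM in untreated proliferating cells. Senescent cells and proliferating cells with doxycycline overlapped, and the other groups were apart. The log2 change with doxycycline was 1.17 (SE 0.11) in senescent cells and -0.87 (SE 0.11) in proliferating cells, the largest fall of the 10 genes there. The cytosolic paralog PCK1 had 0 counts in all 8 libraries. The gene NRL, whose span covers PCK2, had 15 to 44 counts a library against 421 to 1327 for PCK2.

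The 3 enzymes of serine synthesis did not keep step with each other. PHGDH (chr1:119711934-119744215), which catalyses the entry step, stood at 30.8 and 33.0 CPM in senescent cells with doxycycline, 19.7 and 19.9 CPM in senescent cells, 38.7 and 35.0 CPM in proliferating cells with doxycycline and 64.5 and 63.7 CPM in untreated proliferating cells. The groups were apart from each other, with the untreated proliferating cells highest and the senescent cells lowest. With doxycycline in senescent cells PHGDH was higher (log2 change 0.69, SE 0.09), yet at 0.498 of its level in untreated proliferating cells. In proliferating cells the log2 change with doxycycline was -0.80 (SE 0.08).

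PSAT1 (chr9:78297125-78330093), the aminotransferase of the middle step, showed the largest change with doxycycline in senescent cells, a log2 change of 1.54 (SE 0.08). It stood at 126 and 113 CPM in senescent cells with doxycycline, 41.6 and 40.6 CPM in senescent cells, 49.6 and 46.2 CPM in proliferating cells with doxycycline and 62.7 and 64.8 CPM in untreated proliferating cells. No groups overlapped, and the level in senescent cells with doxycycline was 1.87 times that of untreated proliferating cells. In proliferating cells the log2 change with doxycycline was -0.41 (SE 0.08).

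PSPH (chr7:56011064-56051444), which releases free serine, varied least among the 3 enzymes. It stood at 19.8 CPM in both libraries of senescent cells with doxycycline, 15.5 and 14.1 CPM in senescent cells, 23.3 and 22.9 CPM in proliferating cells with doxycycline and 28.6 and 29.2 CPM in untreated proliferating cells. The groups kept the order seen for PHGDH and did not overlap. The log2 change with doxycycline was 0.42 (SE 0.09) in senescent cells and -0.32 (SE 0.09) in proliferating cells. PSPHP1, a copy of PSPH with 174 to 570 counts a library against 465 to 1171 for PSPH, was highest in senescent cells with doxycycline, so reads assigned to either gene are uncertain.

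Set against each other within a library, the balance of the 3 transcripts differed between groups. For each count of PHGDH, PSAT1 had 4.08 and 3.42 counts in senescent cells with doxycycline, 2.11 and 2.04 in senescent cells, 1.28 and 1.32 in proliferating cells with doxycycline and 0.972 and 1.02 in untreated proliferating cells. For each count of PSPH, PSAT1 had 6.36 and 5.69 counts in senescent cells with doxycycline, 2.68 and 2.88 in senescent cells, 2.13 and 2.02 in proliferating cells with doxycycline and 2.19 and 2.22 in untreated proliferating cells. PSAT1 therefore took a larger place among the 3 in senescent cells with doxycycline than in any other group. For each count of PSPH, PHGDH had 1.56 and 1.67 counts in senescent cells with doxycycline, 1.27 and 1.41 in senescent cells, 1.66 and 1.53 in proliferating cells with doxycycline and 2.26 and 2.18 in untreated proliferating cells, the highest. Only the change of each ratio between libraries can be read, since counts also follow transcript length.

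The mitochondrial folate enzymes also parted. SHMT2 (chr12:57229711-57234935) stood at 116 and 117 CPM in senescent cells with doxycycline, 99.4 and 88.3 CPM in senescent cells, 145 and 138 CPM in proliferating cells with doxycycline and 152 and 155 CPM in untreated proliferating cells. It had the smallest changes with doxycycline of the 10 genes, 0.31 (SE 0.08, log2) in senescent cells and -0.12 (SE 0.08), not past the threshold, in proliferating cells. MTHFD2 (chr2:74198615-74217565) stood at 149 and 142 CPM in senescent cells with doxycycline, 84.9 and 82.9 CPM in senescent cells, 87.1 and 82.7 CPM in proliferating cells with doxycycline and 106 and 108 CPM in untreated proliferating cells. It was highest in senescent cells with doxycycline, and the 2 lowest groups overlapped. Its log2 change with doxycycline was 0.79 (SE 0.07) in senescent cells and -0.33 (SE 0.07) in proliferating cells.

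For each count of SHMT2, MTHFD2 had 1.29 and 1.21 counts in senescent cells with doxycycline, 0.855 and 0.938 in senescent cells, 0.601 in both libraries of proliferating cells with doxycycline and 0.694 and 0.695 in untreated proliferating cells. The 2 messages of the same mitochondrial route thus stood in different proportion in every group. SLC4A5, which shares 1324 bases with the end of MTHFD2, had 172 to 416 counts a library against 2726 to 5859 for MTHFD2.

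**Figure D2:**
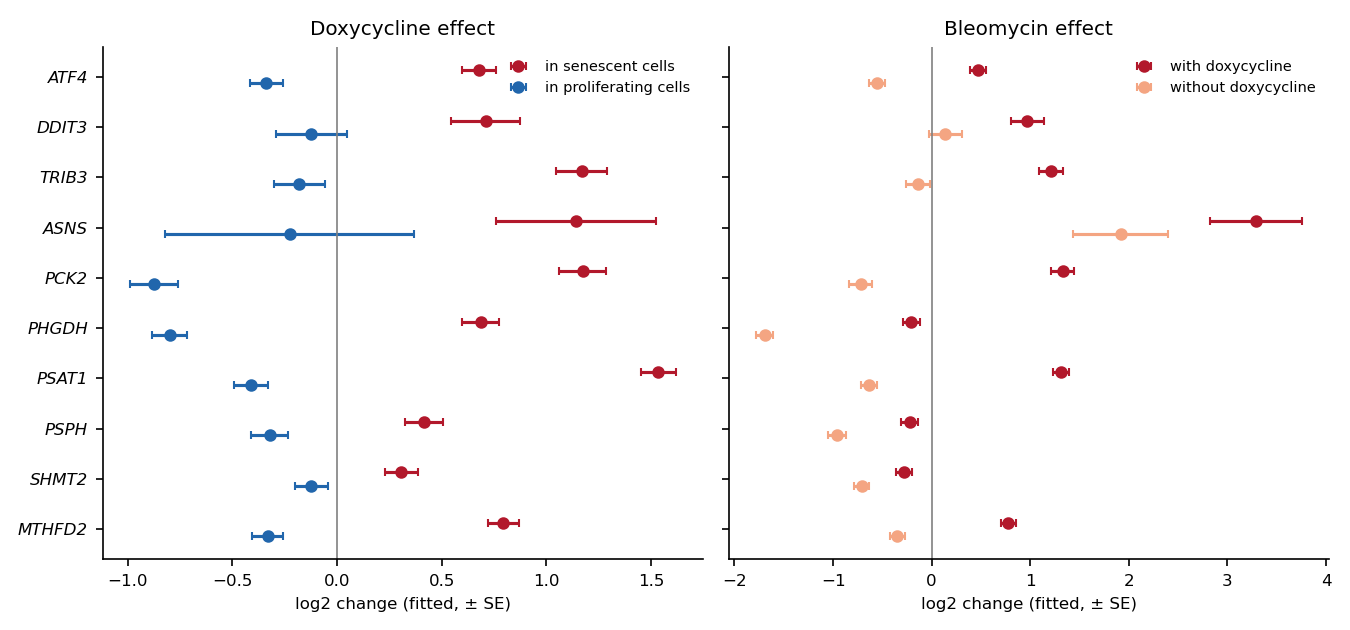
Fitted log2 changes of the 10 genes with their SE, for doxycycline in each state (left) and for bleomycin with and without doxycycline (right), 0 marking no change. With doxycycline every gene lies right of 0 in senescent cells, from 0.31 for SHMT2 to 1.54 for PSAT1, and left of 0 in proliferating cells.

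Taken over the 10 genes, the median log2 change with doxycycline was 0.75 in senescent cells, where the median over all genes tested was 0.00. In proliferating cells it was -0.33, where that of all genes was 0.00. In senescent cells the libraries with doxycycline lay above those without for 10 of the 10 genes and for 36.6% of all genes tested. In proliferating cells they lay below for 8 of the 10, DDIT3 and ASNS being the exceptions, and for 31.2% of all genes tested. The libraries lay on opposite sides in the 2 states for 8 of the 10 and for 10.5% of all genes tested, and nothing is read from these counts, since the values chose the genes. Without replicate 2 of the untreated proliferating cells, 3 of the 10 were called in proliferating cells, with ATF4, PSPH and MTHFD2 lost. Without replicate 2 of the senescent cells, 7 of the 10 were called in senescent cells, with DDIT3, ASNS and SHMT2 lost.

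The difference between the doxycycline effects in the 2 states was positive for all 10 genes. It was 2.05 (SE 0.16, log2) for PCK2 and 1.95 (SE 0.12) for PSAT1. PHGDH followed with 1.49 (SE 0.12), TRIB3 with 1.35 (SE 0.17), MTHFD2 with 1.12 (SE 0.10) and ATF4 with 1.02 (SE 0.11). The smallest were 0.83 (SE 0.24) for DDIT3, 0.74 (SE 0.13) for PSPH and 0.43 (SE 0.11) for SHMT2. ASNS had 1.37 with an SE of 0.71, and it alone did not pass the threshold. The median was 1.24 over the 10 genes and -0.03 over all genes tested. With each library left out in turn, 7 to 9 of the 10 were past the threshold. DDIT3 and SHMT2 were both lost without either replicate of the untreated proliferating cells or replicate 2 of the senescent cells. DDIT3 alone was lost without replicate 2 of the proliferating cells with doxycycline, replicate 1 of the senescent cells or replicate 1 of the senescent cells with doxycycline, and SHMT2 alone without replicate 2 of the senescent cells with doxycycline.

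The comparisons of bleomycin-treated with proliferating cells ask what differs in the senescent state. With doxycycline present, ASNS was higher by 3.29 (SE 0.47, log2), PCK2 by 1.33 (SE 0.11), PSAT1 by 1.31 (SE 0.08), TRIB3 by 1.21 (SE 0.12), DDIT3 by 0.97 (SE 0.17), MTHFD2 by 0.78 (SE 0.07) and ATF4 by 0.47 (SE 0.08) than in proliferating cells with doxycycline. These were the regulators and most of the enzymes. The remaining 3 enzymes were slightly lower, with log2 changes of -0.21 (SE 0.09) for PHGDH, -0.22 (SE 0.09) for PSPH and -0.28 (SE 0.08) for SHMT2. The calls of PHGDH and PSPH lay close to the threshold. Both were lost without either untreated proliferating library, without replicate 1 of the proliferating cells with doxycycline, and without either library of senescent cells with doxycycline, and that of PSPH also without replicate 2 of the proliferating cells with doxycycline. Between 8 and 10 of the 10 genes were called in these fits.

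Without doxycycline, bleomycin went with lower levels of 7 of the 10 genes. PHGDH fell most, with a log2 change of -1.69 (SE 0.09), which left it at 0.309 of its proliferating level. PSPH had -0.96 (SE 0.09), PCK2 -0.72 (SE 0.11), SHMT2 -0.71 (SE 0.08), PSAT1 -0.63 (SE 0.08), ATF4 -0.55 (SE 0.08) and MTHFD2 -0.35 (SE 0.07). TRIB3 had -0.14 (SE 0.12) and DDIT3 0.14 (SE 0.17), neither past the threshold. ASNS alone was higher, with a log2 change of 1.92 (SE 0.48) that rests on 49 counts in senescent and 15 in proliferating cells. The whole serine route and both mitochondrial folate enzymes were thus lower in senescent than in proliferating cells. The median was -0.59 over the 10 genes against 0.01 over all genes tested, and 0.87 against -0.01 when doxycycline was present.

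**Figure D3:**
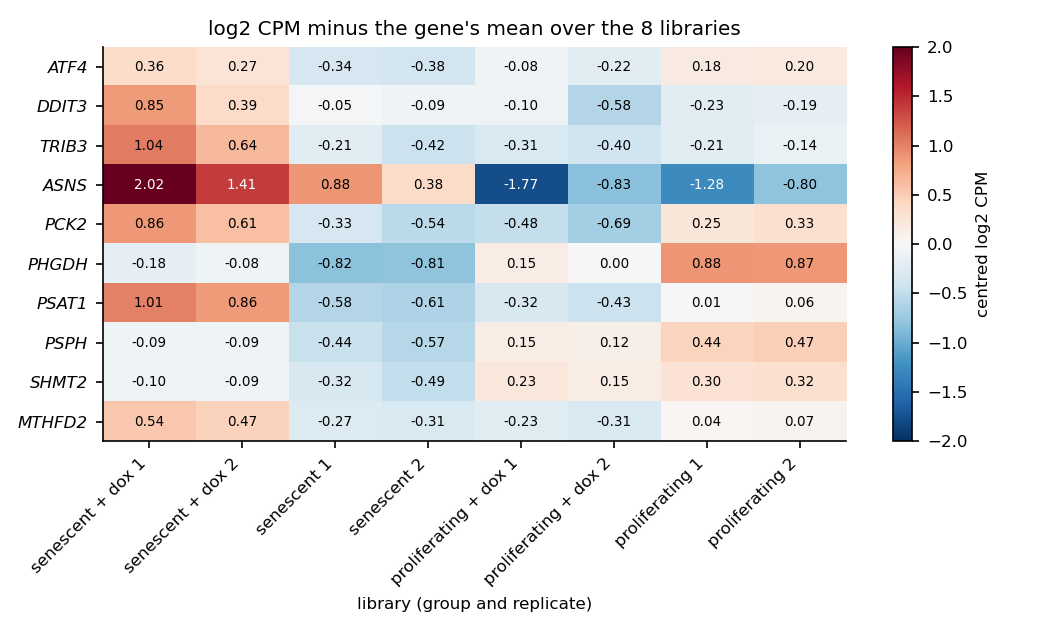
Log2 CPM of each gene in each library, centred on that gene's mean over the 8 libraries. Senescent cells with doxycycline are above the mean for 7 of the genes, among them ATF4, TRIB3 and PSAT1, and PHGDH, PSPH and SHMT2 are highest in untreated proliferating cells.

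Across the 4 group means, centred log2 CPM ranged most widely for ASNS, by 3.02, followed by PHGDH with 1.69 and PSAT1 with 1.53. The narrowest ranges were those of ATF4, 0.68, and SHMT2, 0.71.

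By group mean, DDIT3, TRIB3, ASNS, PCK2, ATF4, PSAT1 and MTHFD2 were highest in senescent cells with doxycycline. Among them ATF4 and PSAT1 were lowest in senescent cells, and for the other 5 the 2 lowest groups overlapped. PHGDH, PSPH and SHMT2 were highest in untreated proliferating cells and lowest in senescent cells. The distance between 2 centred profiles, as the root mean square difference in log2 CPM over the libraries, was smallest for PSPH and SHMT2 (0.09), followed by ATF4 and MTHFD2 (0.14) and TRIB3 and PSAT1 (0.20).

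Among genes outside the group, the profiles most like that of ATF4 were those of UBE2D1, an E2 ubiquitin-conjugating enzyme, at a distance of 0.06, ZFAND6 at 0.07 and SYTL2 at 0.08. UBE2D1 averaged 24.7 ± 1.87 CPM in senescent cells with doxycycline, 14.9 ± 0.287 CPM in senescent cells, 17.9 ± 0.279 CPM in proliferating cells with doxycycline and 20.9 ± 1.01 CPM in untreated proliferating cells (SD, n = 2 each). Those nearest PHGDH were VIL1, PRICKLE3 and HINT2, each at 0.20. Those nearest ASNS were more distant, with ERRFI1, a feedback inhibitor of the EGF receptor, at 0.40, F2RL2 at 0.47 and MXI1 at 0.49. ERRFI1 averaged 1194 ± 87.7 CPM in senescent cells with doxycycline, 659 ± 57.3 CPM in senescent cells, 157 ± 9.60 CPM in proliferating cells with doxycycline and 232 ± 19.2 CPM in untreated proliferating cells (SD, n = 2 each). These distances describe 8 libraries and were not tested.

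The rest of the pathway was read from 5 lists with 106 genes outside the 10, of which 101 were tested. With doxycycline in senescent cells 33 of the 101 rose and 33 fell. In proliferating cells 17 rose and 21 fell. Under scaling by total counts 48 rose and 25 fell in senescent cells, and 15 rose and 21 fell in proliferating cells. The lists are given apart.

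**Figure D4:**
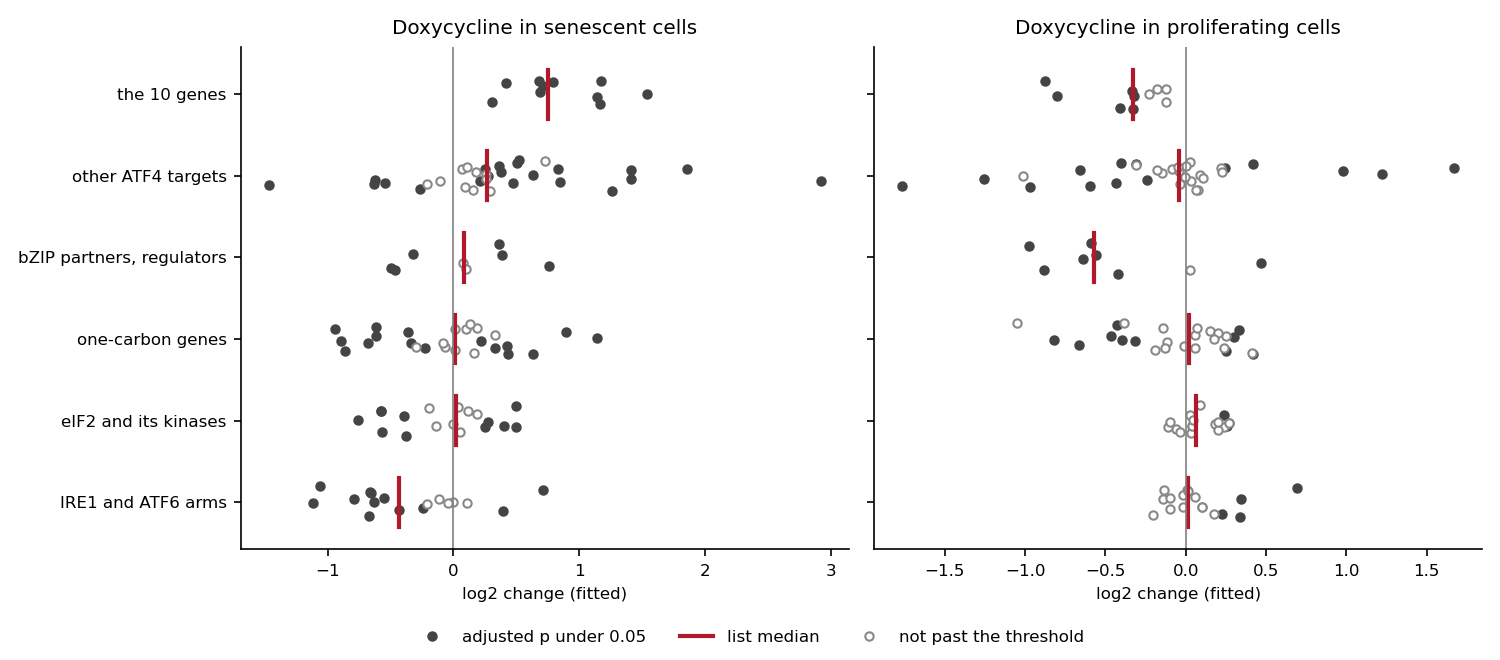
Log2 change with doxycycline in senescent cells (left) and in proliferating cells (right) of each gene tested in the 5 pathway lists and of the 10 genes, 1 point a gene, filled where the adjusted p was under 0.05, with a line at the list median. In senescent cells the other ATF4 targets reach from -1.47 for GDF15 to 2.93 for SLC7A5, while 10 of 17 genes of the IRE1 and ATF6 arms fell.

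The other ATF4 targets were mostly amino acid transporters, synthesis enzymes and tRNA synthetases. Of 32 tested, 16 rose and 5 fell with doxycycline in senescent cells, with a median log2 change of 0.27. Under scaling by total counts 22 rose and 4 fell. The paired subunits of the large neutral amino acid transporter led. SLC7A5 stood at 1666 and 1705 CPM in senescent cells with doxycycline, against 211 and 233 CPM in senescent cells (log2 change 2.93, SE 0.10, edgeR adjusted p = 6.25e-12). Its partner SLC3A2 stood at 286 and 293 CPM, against 79.4 and 80.7 CPM in senescent cells (1.85, SE 0.08, edgeR adjusted p = 8.24e-11). VLDLR, a lipoprotein receptor, rose by 1.41 (SE 0.14, log2, edgeR adjusted p = 6.33e-07). GDF15, a secreted stress cytokine that p53 also induces, fell to 26.4 and 31.1 CPM, against 67.0 and 92.3 CPM in senescent cells (-1.47, SE 0.14, edgeR adjusted p = 2.09e-06). The list thus did not move as a block.

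In proliferating cells 5 of the 32 rose and 9 fell with doxycycline, and 4 rose and 5 fell without replicate 2 of the untreated proliferating cells. SLC7A5 rose there too, at 558 and 635 CPM with doxycycline, against 186 and 188 CPM without (log2 change 1.67, SE 0.09, edgeR adjusted p = 3e-09). CTH, which makes cysteine, rose by 1.22 (SE 0.19, log2, edgeR adjusted p = 0.000249). DDIT4, an inhibitor of mTORC1, fell to 16.4 and 20.4 CPM, against 62.2 and 62.8 CPM without doxycycline (-1.77, SE 0.13, edgeR adjusted p = 4.85e-07). SLC6A9, a glycine transporter, fell by 1.26 on the log2 scale (SE 0.15, edgeR adjusted p = 1.25e-05). SLC7A5 was thus higher with doxycycline in both states.

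The doxycycline effect differed between the states for 22 of the 32, more positive in senescent cells for 16 and more negative for 6. The largest differences were those of DDIT4 (log2 2.03, SE 0.18, edgeR adjusted p = 8.54e-06), VLDLR (2.01, SE 0.22, adjusted p = 2.1e-05), SLC6A9 (1.55, SE 0.20, adjusted p = 9.52e-05) and SLC1A4, a serine and alanine transporter (1.49, SE 0.21, adjusted p = 0.000194). With bleomycin in the presence of doxycycline 24 of the 32 rose and 3 fell, and without it 13 rose and 10 fell, which turned to 9 and 13 under scaling by total counts. GDF15 rose after bleomycin in both settings, by 2.17 (SE 0.15, edgeR adjusted p = 8.91e-08) with and 3.33 (SE 0.15, edgeR adjusted p = 7.96e-10) without doxycycline, on the log2 scale.

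In the lists of other ATF4 targets and of serine, glycine and folate genes, 12 genes had a CARE match with its flanks inside the window. HERPUD1, of the IRE1 and ATF6 arms, also held a match and is not in this count. With doxycycline in senescent cells 9 of the 12 rose, 1 fell, 1 was not called and 1 was not tested. Over all genes tested 22.6% rose and 23.8% fell, and the count is a description. GARS1 (log2 change 0.21) was not called without the low-count filter (0.20) or any 1 library of either senescent group (0.18 to 0.23). Nor was it called without either untreated proliferating library (0.21). MARS1 (0.25) was not called without replicate 1 of the senescent cells (0.23) or of the senescent cells with doxycycline (0.25). Among those printed above, SLC7A1, a cationic amino acid transporter, rose by 0.85 (SE 0.08, log2, edgeR adjusted p = 5.88e-07) and SLC1A4 by 0.83 (SE 0.15, adjusted p = 0.000295). SLC1A5, a glutamine transporter, rose by 0.52 (SE 0.08, edgeR adjusted p = 6.54e-05). AARS1, the alanyl-tRNA synthetase, rose by 0.51 (SE 0.08, edgeR adjusted p = 6.47e-05). CHAC1, which degrades glutathione, rose by 0.37 (SE 0.09, edgeR adjusted p = 0.00399), but the call was lost without replicate 2 of the senescent cells (0.27) or replicate 1 of the senescent cells with doxycycline (0.31). IARS1, the isoleucyl-tRNA synthetase, carried the same 8 letters as CHAC1, SLC1A4, SLC1A5 and AARS1, TGATGCAA, and fell by 0.63 on the log2 scale (SE 0.08, edgeR adjusted p = 1.04e-05). The same letters thus stood in genes that rose and in 1 that fell, and their part in these changes was not tested.

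Of the 4 kinases that feed ATF4, 0 passed the test as higher with doxycycline in senescent cells and 2 fell. EIF2AK3, which encodes PERK, the kinase of the endoplasmic reticulum, stood at 23.2 and 26.4 CPM in senescent cells with doxycycline, against 35.3 and 38.8 CPM in senescent cells (log2 change -0.58, SE 0.10, edgeR adjusted p = 0.000179). EIF2AK2, which encodes the RNA-activated kinase PKR, stood at 193 and 198 CPM, against 282 and 302 CPM in senescent cells (-0.58, SE 0.08, edgeR adjusted p = 2.99e-05). EIF2AK1, the haem-regulated kinase, and EIF2AK4, the amino acid sensor GCN2, had 0.04 (SE 0.08) and 0.05 (SE 0.08), neither past the threshold, though both were called higher under scaling by total counts (0.21 and 0.22). The protease OMA1, which relays mitochondrial stress to EIF2AK1, fell by 0.76 on the log2 scale (SE 0.15, edgeR adjusted p = 0.000560). Kinase activity is set by phosphorylation, which mRNA levels do not show.

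Over the 18 genes of eIF2, its kinases and exchange factor, 5 rose and 6 fell with doxycycline in senescent cells, and 9 rose and 4 fell when libraries were scaled by total counts only. In proliferating cells 3 rose and 0 fell, while 0 were called without either replicate of the untreated proliferating cells and 1 without replicate 1 of either group with doxycycline. After bleomycin without doxycycline all 4 kinases rose, EIF2AK2 by 1.58 (SE 0.08, log2, edgeR adjusted p = 2.15e-10), EIF2AK3 by 0.86 (SE 0.10, adjusted p = 1.72e-06), EIF2AK4 by 0.55 (SE 0.08, adjusted p = 1.42e-05) and EIF2AK1 by 0.27 (SE 0.08, adjusted p = 0.00586). The call of EIF2AK1 was lost without replicate 1 of the untreated proliferating cells (0.22) or of the senescent cells (0.21), and under scaling by total counts (0.10). ATF4 itself was lower in that comparison.

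The bZIP partners and stress regulators were few. CEBPG, which dimerises with ATF4, had a profile much like the regulators above, at 37.4 and 44.5 CPM in senescent cells with doxycycline, 23.0 and 25.3 CPM in senescent cells, 21.1 and 22.5 CPM in proliferating cells with doxycycline and 28.7 and 29.8 CPM in untreated proliferating cells. It rose with doxycycline in senescent cells (log2 change 0.76, SE 0.10, edgeR adjusted p = 1.47e-05), and the effect differed between the states (1.19, SE 0.14, edgeR adjusted p = 4.01e-05). ATF5, a factor translated under stress like ATF4, went the other way, at 20.1 and 20.3 CPM in senescent cells with doxycycline, against 27.2 and 29.9 CPM in senescent cells (-0.50, SE 0.09, edgeR adjusted p = 0.000383). ATF3 rose with bleomycin by 3.24 (SE 0.14, log2, edgeR adjusted p = 2.31e-11) with doxycycline and by 2.60 (SE 0.13, adjusted p = 1.13e-10) without it. Over the 8 genes, 3 rose and 3 fell with doxycycline in senescent cells, and 1 rose and 6 fell in proliferating cells.

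Of the other serine, glycine and folate genes, 7 of 26 tested rose and 9 fell with doxycycline in senescent cells, and 11 rose and 6 fell under scaling by total counts. SHMT1, the cytosolic counterpart of SHMT2, stood at 6.34 and 6.71 CPM in senescent cells with doxycycline, 2.80 and 3.10 CPM in senescent cells, 16.2 and 16.6 CPM in proliferating cells with doxycycline and 17.5 and 18.1 CPM in untreated proliferating cells. It rose with doxycycline in senescent cells (log2 change 1.15, SE 0.13, edgeR adjusted p = 2.97e-06), while the cytosolic trifunctional enzyme MTHFD1 fell (-0.62, SE 0.08, edgeR adjusted p = 1.36e-05). MTHFD1L, which completes the mitochondrial route to formate after MTHFD2, rose by 0.42 (SE 0.08, edgeR adjusted p = 0.000318), and MTHFD2L, a paralog of MTHFD2, by 0.89 (SE 0.16, adjusted p = 0.000265).

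After bleomycin the same list was mostly lower, with 2 of 26 higher and 16 lower with doxycycline, and 2 higher and 14 lower without it. TYMS, which makes thymidylate, fell by 2.46 (SE 0.09, edgeR adjusted p = 4.49e-12) with doxycycline and by 2.31 (SE 0.09, adjusted p = 5.63e-12) without it, on the log2 scale. SHMT1 fell by 2.59 without doxycycline (SE 0.12, edgeR adjusted p = 6.03e-11). All 10 proliferation markers fell in both comparisons, and their part in these changes was not tested. In proliferating cells doxycycline raised 4 of the 26 and lowered 6, with 1 and 3 without replicate 2 of the untreated proliferating cells and 2 and 4 without their replicate 1.

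Genes of the other arms of the unfolded protein response mostly fell with doxycycline in senescent cells, where 2 of 17 rose and 10 fell. The counts were 3 and 9 under scaling by total counts. PDIA4, a disulphide isomerase of the endoplasmic reticulum, stood at 169 and 220 CPM in senescent cells with doxycycline, against 408 and 436 CPM in senescent cells (log2 change -1.12, SE 0.11, edgeR adjusted p = 5.29e-07). The chaperone CALR stood at 1204 and 1366 CPM, against 2527 and 2842 CPM in senescent cells (-1.06, SE 0.10, edgeR adjusted p = 4.68e-07). HSPA5, the chaperone BiP, stood at 1092 and 1225 CPM, against 1793 and 1874 CPM in senescent cells (-0.66, SE 0.09, edgeR adjusted p = 2.86e-05). DNAJB9, an IRE1 target, was 1 of the 2 that rose, by 0.72 (SE 0.09, log2, edgeR adjusted p = 8.58e-06).

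The difference between the states was negative for all 11 genes of this list that passed the threshold. The 11 became 6 without replicate 2 of the untreated proliferating cells and 5 without replicate 1 of the senescent cells with doxycycline. In proliferating cells 4 of the 17 rose with doxycycline and 0 fell, with 1 higher without either replicate of the untreated proliferating cells and 2 without replicate 2 of the proliferating cells with doxycycline. The ER stress response element, to which ATF6 is known to bind, was searched as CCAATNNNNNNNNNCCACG on either strand. It stood in the RefSeq windows of 6 of the 17 (XBP1, HSPA5, HSP90B1, CALR, PDIA6 and CRELD2). Over all genes the share was 0.0916%, and of the 8 genes matched among the 10 it was found in 0. The list was chosen for this known regulation, so the share is a description.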

How the data were processed

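The authors deposited raw counts for each gene in 8 libraries, and these were analysed. Per the labels' protocols, RNA from acid phenol extraction went into TruSeq Stranded mRNA libraries. The tools listed in the submitters' processing notes are HISAT2 2.1.0, Trimmomatic 0.36 and featureCounts 1.6.3, and the build is hg38. How they were set, and the annotation and strand handling, is not given in the sources used here. Values of overlapping genes and copies are therefore uncertain.

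Genes passing edgeR's filterByExpr received TMM factors and entered the robust quasi-likelihood model over 4 groups (edgeR 4.0.16, limma 3.58.1, R 4.3.3), with 4 residual degrees of freedom and a common biological coefficient of variation of 0.0904. The tests of the 5 contrasts were two-sided, with Benjamini-Hochberg adjustment over 17155 genes and a threshold of 0.05. The SE is the log2 change divided by the square root of F. CPM uses TMM factors, and log2 CPM a prior count of 2. The steps were tested on simulated data.

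Replicate numbers follow the title and differ in the description. Deviations of same-numbered libraries correlated at -0.0121 to 0.159, so the numbers were not taken to pair libraries. Alternatives were DESeq2 1.42.0, its size factors in edgeR, total counts, no filter, only the libraries compared, each number as a block, and each library left out.

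Genes named are the 10, up to 4 per list and comparison with the largest change among those called at a mean log2 CPM of 1 or more, the eIF2 kinases, SHMT1, MTHFD1, MTHFD1L, and the 3 nearest profiles among genes at a mean log2 CPM of 3 or more. Other genes with a CARE match, and HSPA5 with doxycycline in senescent cells, were added after their values were seen. The 10 genes and the lists were chosen with earlier results of these data known. Plots were drawn with matplotlib 3.10.9.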

Additional observations from a re-analysis of the deposited data

Results flagged for a closer look

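For 8 of the 10 genes the libraries with doxycycline lay wholly above those without in senescent cells and wholly below in proliferating cells. Such opposite sides, in either order, were seen for 10.5% of all genes tested. In proliferating cells TRIB3 (log2 change -0.18) and SHMT2 (-0.12) did not pass the threshold. The difference between the 2 log2 effects, senescent minus proliferating, was 2.05 for PCK2, 1.95 for PSAT1, 1.49 for PHGDH, 1.35 for TRIB3, 1.12 for MTHFD2, 1.02 for ATF4, 0.74 for PSPH and 0.43 for SHMT2. These genes were chosen by the values compared, so their place past the threshold in the fit over all genes is no test of the difference.

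Among the listed genes outside the 10, the fitted difference between the doxycycline effects passed edgeR's test for 52 of 101, 25 positive and 27 negative. This balance depended on the scaling, since with total counts 49 passed, 34 positive and 15 negative. Those that follow are the up to 4 of each list with the largest difference. It was positive for DDIT4 (2.03), VLDLR (2.01), SLC6A9 (1.55), SLC1A4 (1.49), SHMT1 (1.26), CEBPG (1.19), JDP2 (1.00), NUPR1 (0.98), GGH (0.58) and MTHFD1L (0.55). It was negative for OMA1 (-0.999), ATF5 (-0.97), CALR (-0.93), PDIA4 (-0.92), HSPA5 (-0.72), CRELD2 (-0.70), PPP1R15A (-0.64), GCSH (-0.55), EIF2AK2 (-0.52) and EIF2B3 (-0.49). The call of CRELD2 was lost without replicate 1 of the senescent cells with doxycycline (-0.50). The calls of GCSH and EIF2B3 were lost without 5 and 4 of the 8 libraries. Under scaling by total counts the calls of EIF2AK2 (-0.34), EIF2B3 (-0.30) and GCSH (-0.36) were lost, and that of GCSH also with DESeq2 (-0.54). With the description's replicate number as a block EIF2B3 (-0.44) and GCSH (-0.47) were not called.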

How the results depend on the processing

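With 2 libraries a group each gene has 4 residual degrees of freedom, and the fit moderates its spread with that of all genes tested. ASNS, at 3 to 75 counts, is limited by depth. No log2 change of the 10 genes that passed the threshold changed sign under an alternative, and 679 of 739 recomputed changes stayed within 1 SE. Scaling by total counts shifted the median of all genes by -0.17 for bleomycin without doxycycline, 0.17 for doxycycline in senescent cells and 0.18 for the difference of the doxycycline effects. The share of calls that were higher was then 37.1% in place of 50.3%, 69.3% in place of 48.7% and 70.5% in place of 40.7%. Under it DDIT3 had -0.04 after bleomycin without doxycycline, against 0.14. DESeq2 did not call ASNS with doxycycline in senescent cells, and neither it, its size factors, total counts nor the 4 libraries alone called PHGDH and PSPH for bleomycin with doxycycline.

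With the description's replicate number as a block, 2353 genes were called for doxycycline in proliferating cells, against 3938 without the block. The title's number as a block gave 4355. Under the description's block PHGDH and PSPH were not called for bleomycin with doxycycline, ASNS for bleomycin without it, and PSPH for doxycycline in proliferating cells. No other count over all genes, the 10 genes or the 101 listed genes moved by more than 1.5 times under a block. Whether the numbers pair the libraries is not known. With each library left out in turn, genes called ranged from 8263 to 10665 for bleomycin without doxycycline, 7748 to 9770 for bleomycin with it, 2011 to 4155 for doxycycline in proliferating cells, 5718 to 8599 in senescent cells and 1852 to 3903 for the difference. In the same order, the 10 genes gave 8 throughout, 8 to 10, 3 to 6, 7 to 10 and 7 to 9, and the listed genes 54 to 72, 65 to 78, 19 to 41, 55 to 68 and 34 to 53. The lowest counts over all genes came without replicate 2 of the untreated proliferating cells or replicate 1 of the senescent cells with doxycycline. A lone library is there assumed to vary like the other groups. The fit to only the libraries compared was not run for the difference, which uses all 8.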
